A study of Homo sapiens with 4 samples.

Results

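The genes described are 165 human genes with a numbered ZNF symbol, the name given to zinc-finger genes. Of these, 164 were chosen because they had at least 1000 read counts in WT replicate 1 and at least 650 in WT replicate 2, and ZNF385C was added because of its change in Helz-null cells. They were drawn from 528 numbered ZNF symbols in a table of 27011 genes, and all 165 were among the 10978 genes tested. RNA-Seq was carried out on HEK293T cells, an established human embryonic kidney line, with 2 WT libraries and 2 libraries of cells in which the helz gene had been edited with Cas9, called Helz-null. HELZ is a putative RNA helicase with a zinc finger of its own. The edit was a small deletion that shifts the reading frame, and the sources used here describe 1 Helz-null line, without saying whether it was 1 clone. The 4 libraries were otherwise of the same cell line, plated in the same way and harvested without treatment. The study states that the replicates of each group are biological, without saying how the cultures were separated.

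Most numbered ZNF proteins are C2H2 zinc-finger proteins, in which a pair of cysteines and a pair of histidines hold a zinc ion and the short helix between them reads DNA. Fingers are strung together by a conserved linker, TGEKP, and long arrays recognise long DNA sites. Many of these proteins also carry a KRAB domain, which recruits the co-repressor TRIM28 (KAP1) and, through it, the histone methyltransferase SETDB1. Smaller numbers bind RNA, ribosomes or chromatin complexes instead, and a few have no finger array at all.

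The coding sequence of 1 finger is shown for 7 members on which the results turn, because it is the feature that names the family. The sequences were read from GRCh37 (hg19), 5′ to 3′ on the coding strand, from chr17:40214874-40214942 on the minus strand for ZNF385C, chr18:74154822-74154905 on the minus strand for ZNF516, chr7:148951303-148951386 on the plus strand for ZNF212, chr1:227842246-227842329 on the plus strand for ZNF678, chr3:44683736-44683819 on the plus strand for ZNF197, chr19:9721155-9721238 on the minus strand for ZNF561 and chr19:9763787-9763870 on the minus strand for ZNF562. Each lies within a coding exon. Capitals mark the codons of the zinc-binding cysteines and histidines, and in the last 6 sequences the linker to the next finger follows the last capital codon.
ZNF385C: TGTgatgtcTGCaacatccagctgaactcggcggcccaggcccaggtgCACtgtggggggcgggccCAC
ZNF516: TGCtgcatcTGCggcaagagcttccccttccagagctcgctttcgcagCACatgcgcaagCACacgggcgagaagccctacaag
ZNF212: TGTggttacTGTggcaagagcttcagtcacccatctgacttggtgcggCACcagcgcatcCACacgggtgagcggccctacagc
ZNF678: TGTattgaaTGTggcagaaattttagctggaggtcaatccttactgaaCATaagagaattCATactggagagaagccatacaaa
ZNF197: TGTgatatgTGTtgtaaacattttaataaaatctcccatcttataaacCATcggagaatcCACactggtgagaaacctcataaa
ZNF561: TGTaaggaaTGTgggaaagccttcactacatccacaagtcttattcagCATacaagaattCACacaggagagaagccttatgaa
ZNF562: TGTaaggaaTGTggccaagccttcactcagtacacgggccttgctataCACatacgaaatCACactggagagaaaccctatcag

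The finger of ZNF385C spans 69 bases and is not followed by a linker of the TGEKP kind, and none of its 4 fingers is. ZNF385 proteins have widely spaced fingers of the type found in proteins that bind double-stranded RNA. The other 6 stretches are 84 bases long. ZNF561 and ZNF562, which lie side by side on chromosome 19 and both fell in Helz-null cells, had 61 of 84 bases in common (72.6%). The remaining pairs among these 6 genes shared between 45.2% and 65.5%.

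Library totals ranged from 41745401 to 70464140 counts, so that 1000 counts correspond to between 14.0 and 23.9 CPM, the counts relative to library size as scaled by the TMM method of edgeR. HELZ itself had 97.7 and 101.7 CPM in WT cells, but 36.2 and 37.1 CPM in Helz-null cells, a log2FC of -1.44 (SE 0.042, adjusted p = 2.13e-27, edgeR's quasi-likelihood test). Of 7 markers listed for HEK293T, 5 were tested and the remaining markers, PAX2 and LHX1, had between 110 and 452 counts. The markers themselves differed between the lines: VIM, KRT8 and KRT18 fell, NEFM rose and NEFL was not called. Their part in the changes of the ZNF genes was not tested. Markers of blood, liver and endothelium (PTPRC, CD3E, ALB and PECAM1) had between 0 and 6 counts in every library, and DES, of muscle, had between 15 and 21. In bulk RNA, fewer cells expressing a gene and less RNA per cell cannot be told apart.

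The median change of the ZNF genes was a small decrease in Helz-null cells. A gene was called at an adjusted p (FDR) under 0.005 from the fit over all 10978 genes. Of the 165 genes, 14 were up-regulated (8.48%) and 31 were down-regulated (18.8%), beside 13.9% and 15.5% of all tested genes. The other 120 were not called. Since ZNF385C was added for its change, its call was fixed by the choice, and without it 13 of 164 were up-regulated (7.93%) and 31 down-regulated (18.9%). Single libraries weighed on these counts: without Helz-null replicate 1, 8 of the 165 genes were up-regulated (all tested genes 9.65%), and without Helz-null replicate 2, 19 were down-regulated (all tested genes 10.8%). The median log2FC of the 165 genes was -0.074, with the middle of the distribution between -0.16 and 0.02, whereas the median of all tested genes was -0.0009. The log2FC was below 0 for 112 genes and above 0 for 53. Both Helz-null libraries lay below both WT libraries for 81 genes (35.7% of all tested genes did so), and above them for 31 (34.9% of all tested genes). When libraries were scaled by their totals alone, 19 of the 165 genes were up-regulated and 24 down-regulated, while the shares of all tested genes moved to 19.3% and 12%. The rule selected genes by their WT counts. For the Helz-null libraries the minima were exchanged between replicates, at least 650 counts in replicate 1 and at least 1000 in replicate 2. These selected 163 genes, of which 161 were tested, with 17 up-regulated, 26 down-regulated and a median of -0.045. ZNF385C, already known to rise, was among the 17.

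**Figure D1:**
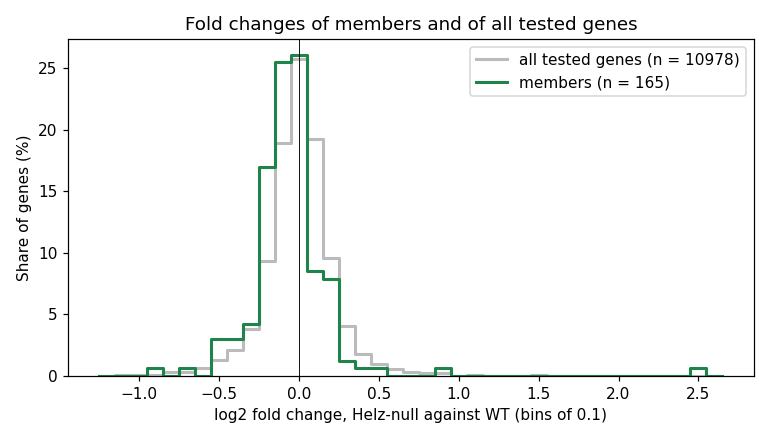
Distribution of log2FC, Helz-null against WT, in bins of 0.1 on the x axis and as a share of genes in percent on the y axis, for the 165 ZNF genes (green) and all 10978 tested genes (grey). The green line lies to the left of the grey line around 0 (median -0.074 against -0.0009). Of the 165 ZNF genes, ZNF385C alone lies near 2.5.

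Changes were small compared with the span of expression levels. Among the 45 called genes, the absolute log2FC was between 0.12 and 2.47, with a median of 0.27. The largest absolute log2FC among the 120 genes not called was 0.24, and the standard error of a single gene was between 0.028 and 0.094. Expression levels per length in WT cells spanned from 2.08 to 109.3 FPKM over the 164 genes chosen by counts, with a median of 7.75 FPKM. The minima cut through a continuum. Just above them lay ZNF266 with 1026 and 651 counts in the WT libraries, ZNF41 with 1115 and 661, and ZNF529 with 1138 and 661. Just below lay ZNF771 with 998 and 790 counts, ZNF430 with 982 and 676, and ZNF431 with 976 and 648.

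ZNF385C stood apart from every other member. The gene occupies positions 40177594 to 40250497 of chromosome 17, minus strand (GRCh37). The WT libraries held 282 and 156 of its counts, whereas 947 and 1642 were found in Helz-null cells. Scaled, these were 4.39 and 3.72 CPM in WT cells and 22.4 and 23.04 CPM in Helz-null cells, so that both Helz-null libraries lay far above both WT libraries. The log2FC was 2.47 (SE 0.094), a 5.53-fold difference, and with single libraries left out it was between 2.37 and 2.61. Since the gene was chosen for this difference, it is given without a test. ZNF385C had 1.56 ± 0.18 FPKM in WT cells and 8.76 ± 0.17 FPKM in Helz-null cells (SD, n = 2 each). This WT level was the lowest per length of the 165 genes, but ZNF385C alone was added without meeting the count minima. The study tested genes above 2 FPKM, and the WT mean of ZNF385C lies under that threshold.

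The paralogs of ZNF385C did not show this change. ZNF385A (HZF), a p53-induced RNA-binding protein and also a member, had 20.2 and 19.7 CPM in WT cells and 22.0 and 20.02 CPM in Helz-null cells, with a log2FC of 0.07 that did not pass the threshold (adjusted p = 0.452, edgeR's quasi-likelihood test). ZNF385B had 335 and 217 counts in WT cells, beside 239 and 455 in Helz-null cells, and was not among the tested genes. ZNF385D had 0 counts in every library.

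The genes around ZNF385C changed far less than ZNF385C did. An exon of ZNF385C overlaps NKIRAS2 on the opposite strand, and NKIRAS2 had 119.1 and 117.9 CPM in WT cells and 122.8 and 123.3 CPM in Helz-null cells (1.04-fold, not called). Whether strand was used in counting is not given in the sources used here, so that reads of the overlap cannot be assigned to either gene. On the same side, DNAJC7 was up-regulated 1.15-fold (adjusted p = 3.30e-06) and CNP 1.13-fold (adjusted p = 1.65e-05), both by edgeR's quasi-likelihood test. On the other side, KAT2A (0.982-fold) and RAB5C (1.07-fold) were not called and GHDC was up-regulated 1.21-fold (adjusted p = 1.92e-05, edgeR's quasi-likelihood test). The median log2FC of the 20 nearest tested genes without a numbered ZNF symbol was 0.09.

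**Figure D2:**
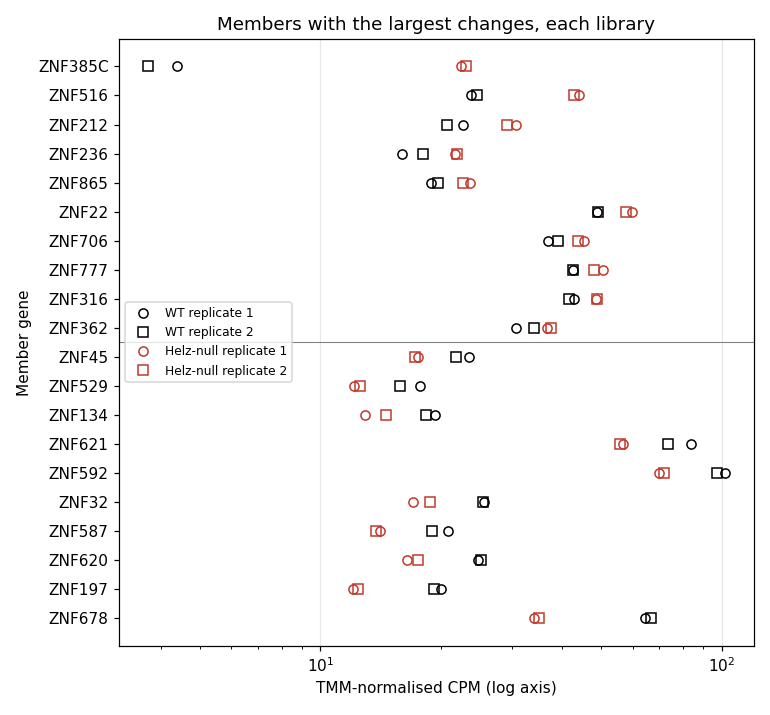
TMM-normalised CPM of each library (log x axis) for the 10 up-regulated genes (above the line) and the 10 down-regulated genes (below it) with the largest absolute log2FC. WT libraries are black and Helz-null libraries red, with circles for replicate 1 and squares for replicate 2. Only called genes whose WT and Helz-null values do not overlap were drawn, so that the separation in each row follows from the choice. The widest separation is that of ZNF385C, which was added for its change.

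Much of the largest movement was shared with neighbouring genes. For each member, the median log2FC of its 20 nearest tested genes without a numbered ZNF symbol was taken as the level of its surroundings. Of the 165 genes, 8 lay where this median was above 0.15, and 6 of them were up-regulated and 0 down-regulated. A further 10 lay where it was below -0.15, and 8 of them were down-regulated and 0 up-regulated. The remaining genes, with ZNF385C left out because it was added for its change, were 146, of which 7 were up-regulated (4.79%) and 23 down-regulated (15.8%), beside 13.9% and 15.5% of all tested genes, with a median log2FC of -0.073.

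On chromosome 18, ZNF516 and ZNF236 both rose amid genes with a median log2FC of 0.58. ZNF516, a transcription factor known from brown fat, had 23.8 and 24.5 CPM in WT cells and 44.2 and 42.8 CPM in Helz-null cells. Its log2FC was 0.85 (SE 0.055, adjusted p = 3.54e-16, edgeR's quasi-likelihood test), the largest increase of a member chosen by counts. ZNF236 has 30 fingers and rose from 16.0 and 18.1 CPM to 21.7 and 21.9 CPM, with a log2FC of 0.37 (adjusted p = 5.92e-05, edgeR's quasi-likelihood test). Relative to its 20 neighbours, of which all 20 had a positive log2FC, ZNF516 was higher by 0.27 and ZNF236 stood at -0.22 on the log2 scale. The direction of ZNF236 thus turns when the level of its surroundings is subtracted. Without WT replicate 1, ZNF236 was no longer called (log2FC 0.27).

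On chromosome 7, between 148.8 and 149.2 Mb, 6 members lie next to each other: ZNF398, ZNF282, ZNF212, ZNF783, ZNF777 and ZNF746. Of these, 4 rose. ZNF212 had 22.6 and 20.6 CPM in WT cells and 30.8 and 29.2 CPM in Helz-null cells, a log2FC of 0.46 (SE 0.063, adjusted p = 1.04e-07, edgeR's quasi-likelihood test). The other calls in this cluster were smaller, with log2FC values of 0.21 for ZNF777, 0.20 for ZNF282 and 0.16 for ZNF746. ZNF398 (0.12) and ZNF783 (0.02) were not called. The surrounding genes had medians between 0.27 and 0.28, so that of these 6 genes ZNF212 alone lay above its surroundings, and the value of ZNF777 turned to -0.07 when they were subtracted. ZNF777 was no longer called without Helz-null replicate 1 (log2FC 0.17), and ZNF746 without any 1 of the libraries (0.15 to 0.17), nor was ZNF746 called with DESeq2, with the filterByExpr filter of edgeR or over all genes with at least 1 count.

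On chromosome 1, ZNF678 had the largest decrease of all 165 genes. The gene spans 227751244 to 227865144 of the plus strand (GRCh37) and encodes 14 fingers. ZNF678 had 64.4 and 66.6 CPM in WT cells and 34.0 and 35.0 CPM in Helz-null cells, so that 52.8% of the WT level remained. The log2FC was -0.92 (SE 0.047, adjusted p = 1.96e-19, edgeR's quasi-likelihood test). Its 20 nearest genes had a median log2FC of -0.67, and 0 of them had a positive value. ZNF678 was lower than this median by a log2 difference of -0.25. Towards the end of the same arm, ZNF496 (log2FC -0.10) and ZNF672 (-0.08) were not called, although their surroundings had a median of -0.26.

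On chromosome 3, between 40.5 and 48.3 Mb, all 5 members fell. The chromosome held 7 members, 5 down-regulated and 0 up-regulated, while of its other 598 tested genes 221 were down-regulated and 33 up-regulated. ZNF197, a KRAB protein known as a partner of the VHL tumour suppressor, had 19.97 and 19.2 CPM in WT cells and 12.03 and 12.4 CPM in Helz-null cells. Its log2FC was -0.68 (SE 0.076, adjusted p = 1.38e-09, edgeR's quasi-likelihood test) amid genes with a median of -0.31. ZNF620 fell from 24.6 and 25.2 CPM to 16.4 and 17.5 CPM, with a log2FC of -0.55 (adjusted p = 1.14e-08, edgeR's quasi-likelihood test). The annotated exons of ZNF197 overlap ZNF660 on the same strand and those of ZNF620 overlap ZNF619, so that their reads could be split between the genes.

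The other members of this stretch on chromosome 3 were ZNF621 (log2FC -0.48), ZNF445 (-0.38) and ZNF589 (-0.25). The call of ZNF589 was lost without WT replicate 1 or without Helz-null replicate 2, with left-out values from -0.33 to -0.15. Only ZNF197 was further from 0 than its surroundings by more than 0.25 on the log2 scale. On chromosome 15, ZNF592 fell from 101.8 and 97.5 CPM to 69.8 and 71.9 CPM, with a log2FC of -0.49 (SE 0.038, adjusted p = 5.17e-14, edgeR's quasi-likelihood test). ZNF710, the other member in a lowered stretch there, had a log2FC of -0.33. The medians around ZNF592 and ZNF710 were -0.34 and -0.35, and 0 of the 20 genes around either had a positive log2FC.

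Members whose surroundings had a median near 0 changed too, and some close neighbours moved in opposite directions. On chromosome 10, ZNF32 fell from 25.6 and 25.5 CPM to 17.0 and 18.8 CPM (log2FC -0.50, adjusted p = 7.38e-08, edgeR's quasi-likelihood test). ZNF22, which lies little more than a megabase away, rose from 49.0 and 49.2 CPM to 59.7 and 57.8 CPM (log2FC 0.26, adjusted p = 9.77e-06, edgeR's quasi-likelihood test). The median of their surroundings was -0.01. On the short arm of chromosome 7, ZNF316 had a log2FC of 0.21 and its neighbour ZNF12 a log2FC of -0.24, amid genes with a median of 0.02. The call of ZNF316 was lost without Helz-null replicate 2 (log2FC 0.20) and that of ZNF12 without WT replicate 1 or either Helz-null replicate (left-out values from -0.27 to -0.20). ZNF12 was also not called with scaling by library size only or with DESeq2.

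Chromosome 19, where many KRAB zinc-finger genes lie in clusters, held 29 of the 165 genes. Of these, 1 was up-regulated (ZNF865, log2FC 0.27) and 9 were down-regulated, while of the other 615 tested genes of this chromosome 109 were up-regulated and 58 down-regulated. The median log2FC was -0.064 for the ZNF genes and 0.035 for the other genes. The decreases came from several clusters: ZNF266, ZNF561 and ZNF562 on the short arm, ZNF714, ZNF260 and ZNF529, ZNF45, and ZNF134 and ZNF587 near the end of the long arm. Some of these calls were lost when a library was left out, with the direction kept. ZNF266 was not called without WT replicate 1 (log2FC -0.32) or without Helz-null replicate 2 (-0.23), and ZNF865 without WT replicate 1 (0.23) or without Helz-null replicate 1 (0.24). DESeq2 called neither. ZNF714, ZNF260 and ZNF561 were not called without Helz-null replicate 2, and their left-out values ran from -0.31 to -0.18, from -0.29 to -0.21 and from -0.35 to -0.25.

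ZNF587 had 20.8 and 19.0 CPM in WT cells and 14.1 and 13.7 CPM in Helz-null cells, a log2FC of -0.52 (SE 0.075, adjusted p = 3.03e-07, edgeR's quasi-likelihood test). Of the 50-base stretches of its transcript, 25.1% also occur in other genes, mainly in its near-copy ZNF417, so that its counts are uncertain. ZNF134 fell from 19.3 and 18.4 CPM to 12.9 and 14.6 CPM (log2FC -0.45) and ZNF529 from 17.7 and 15.8 CPM to 12.1 and 12.6 CPM (log2FC -0.44). ZNF562 (log2FC -0.39) and its neighbour ZNF561 (-0.30) fell together, and their transcripts shared 5.63% and 6.96% of such stretches with other genes. In all, 13 members shared at least 5%, of which 1 was up-regulated (7.69%) and 4 were down-regulated (30.8%), beside 8.16% and 17.7% of the members that shared less (without ZNF385C) and 13.9% and 15.5% of all tested genes.

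The most abundant members showed small changes. ZNF703, ZNF503, ZNF664, ZNF24 and ZNF207 had the highest mean CPM in WT cells. ZNF703 and ZNF503, related co-repressors in which the finger pattern searched here was not found, both fell: ZNF503 from 305.6 and 325.4 CPM to 258.7 and 259.6 CPM (log2FC -0.28, adjusted p = 4.87e-10, edgeR's quasi-likelihood test), and ZNF703 with a log2FC of -0.16, which was not called without Helz-null replicate 2 (-0.13). Per length, ZNF703 was the highest of the 165 genes at 109.3 FPKM in WT cells, followed by ZNF207 at 96.1 FPKM. ZNF24 had 267.1 and 267.8 CPM in WT cells and 272.0 and 268.5 CPM in Helz-null cells, and ZNF207, a spindle and kinetochore protein, had 226.8 and 219.8 CPM against 222.0 and 215.4 CPM. Neither was called. ZNF664 was not called (log2FC -0.08).

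The members differ in the domains they encode, which the rule did not use. The canonical coding sequences of 161 members were translated, while ZNF204P, ZNF252P, ZNF271P and ZNF518A had none translated here. The number of C2H2 fingers ranged from 0 to 36, with a median of 8. A KRAB A-box pattern was found in 50 members, and it missed known KRAB proteins such as ZNF263 and ZNF202. Of the 50 members with the pattern, 3 were up-regulated (6%) and 15 down-regulated (30.0%), with a median log2FC of -0.13, where 13.9% and 15.5% of all tested genes were called. Of the 110 without it, ZNF385C being left out of these counts and those that follow, 10 were up-regulated (9.09%) and 15 down-regulated (13.6%, near the share of all tested genes), with a median of -0.05. Leaving aside genes in raised or lowered stretches, 1 was up-regulated (2.44%) and 10 were down-regulated (24.4%) of 41 with the pattern, and 6 were up-regulated (5.94%) and 12 down-regulated (11.9%) of 101 without it. These shares are descriptions and were not tested against each other.

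Fingers and base composition went along with the KRAB pattern. Members with the pattern had a median of 11.5 fingers and a median coding GC content of 44.6%. The 111 without it, here with ZNF385C, had medians of 7 fingers and 54.3%. Of 62 members with at least 10 fingers, 4 were up-regulated (6.45%) and 15 down-regulated (24.2%), with a median of -0.098. Of 43 members with 0 to 4 fingers, 5 were up-regulated (11.6%) and 6 down-regulated (14%), near the 13.9% and 15.5% of all tested genes, with a median of -0.024. Below 45% GC, 1 of 55 members was up-regulated and 15 were down-regulated, with a median log2FC of -0.13, whereas of all 2652 tested genes of this GC range 8.6% were up-regulated and 18.5% down-regulated, with a median of -0.029. From 60% GC upwards, 7 of 52 members were up-regulated and 5 down-regulated, with a median of 0.015, and of all 2440 tested genes in that range 18.1% were up-regulated and 13.2% down-regulated, with a median of 0.031.

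Members with and without the KRAB pattern are set side by side in these GC ranges, in groups of as few as 9 genes. The groups were not tested against each other. From 45 to 60% GC, the median was -0.18 for 15 members with the pattern (0 up-regulated, 6 down-regulated) and -0.042 for 38 members without it (5 up-regulated, 4 down-regulated), beside 0.0029 for all tested genes of that range, of which 15.0% were up-regulated and 15.4% down-regulated. Below 45% GC the median was -0.15 for 26 members with the pattern (0 up-regulated, 8 down-regulated) and -0.11 for 29 without it (1 up-regulated, 7 down-regulated). From 60% GC upwards the medians were 0.02 for 9 members with the pattern (3 up-regulated, 1 down-regulated) and 0.011 for 43 without it (4 up-regulated, 4 down-regulated). Over the 10508 tested genes with a translated coding sequence, the log2FC rose by 0.042 for each 10 points of GC of the whole transcript. The same slope was -0.01 for WT replicate 2 against 1 and 0.00021 for Helz-null replicate 2 against 1. After the trend of Helz-null against WT was subtracted, the median of the 161 members with a translated coding sequence was -0.054, beside -0.072 before. The part of GC content in the lower values of KRAB genes was otherwise not tested.

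**Figure D3:**
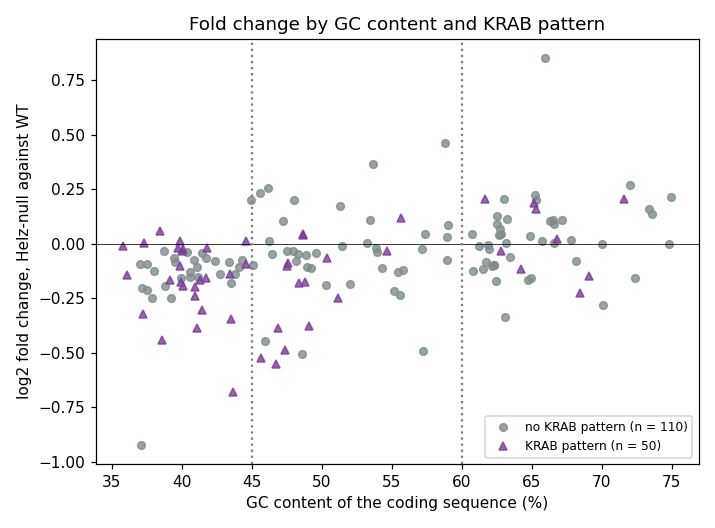
The log2FC of 160 members with a translated coding sequence (y axis) against the GC content of that sequence in percent (x axis), with ZNF385C left out for scale. Triangles mark the 50 members with a KRAB A-box pattern and circles the 110 without it, and dotted lines mark 45 and 60% GC. To the left of the lines most points lie below 0 (median -0.13), and to the right they spread to both sides of 0 (median 0.015).

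Of 10 RNA and ribosome factors, 1 was up-regulated and 0 were down-regulated, with a median log2FC of -0.036, beside 13.9% and 15.5% of all tested genes. A list of this length is too short to be read against those shares. The increase was that of ZNF106, an RNA-binding splicing factor, which had 70.6 and 71.2 CPM in WT cells and 87.2 and 76.6 CPM in Helz-null cells (log2FC 0.20, adjusted p = 2.34e-04, edgeR's quasi-likelihood test). It was not called without Helz-null replicate 1, the higher of its Helz-null values (log2FC 0.11). ZNF598, the ubiquitin ligase that senses collided ribosomes, had 108.4 and 107.3 CPM in WT cells and 109.5 and 107.0 CPM in Helz-null cells (log2FC 0.00, SE 0.035). ZNF593 (log2FC -0.16) and ZNF622 (0.11), both known from assembly of the large ribosomal subunit, were not called, nor were the splicing-linked ZNF326 (-0.09), ZNF638 (-0.08) and ZNF830 (-0.01), the double-stranded RNA binder ZNF346 (-0.04) and ZNF473 (-0.05), which acts in histone mRNA processing.

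Of 17 members in chromatin and transcription complexes, 0 were up-regulated and 2 down-regulated (11.8%, beside 15.5% of all tested genes), with a median of -0.078. ZNF592, given above, is part of a complex with ZNF687 and ZNF532, whose log2FC values were -0.13 and -0.19 and did not pass the threshold. ZNF644, a partner of the histone methyltransferases G9a and GLP, had a log2FC of -0.12 (adjusted p = 0.0046, edgeR's quasi-likelihood test) and kept its call in 3 of 12 alternative analyses. Among those that lost it were the analyses without WT replicate 2 and without either Helz-null replicate (log2FC from -0.14 to -0.11). The promoter-binding paralogs ZNF143 (log2FC -0.05) and ZNF76 (0.09) and the CoREST partner ZNF217 (-0.11) were not called.

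Of 4 members listed for silencing of transposons, imprinted genes and gene clusters, 2 were down-regulated, and the median was -0.21. A list of this length is too short to be read against the 15.5% of all tested genes. ZNF445, a regulator of imprinting, fell from 54.2 and 52.6 CPM to 43.3 and 39.3 CPM (log2FC -0.38, adjusted p = 4.65e-08, edgeR's quasi-likelihood test) and lies in the lowered stretch of chromosome 3. ZNF263 fell from 39.1 and 38.5 CPM to 33.7 and 32.5 CPM (log2FC -0.23, adjusted p = 3.64e-04, edgeR's quasi-likelihood test), in surroundings with a median of -0.0028, and was not called without Helz-null replicate 2 (log2FC -0.21). ZNF202 (log2FC -0.18) and ZNF268 (-0.16) were not called, although their WT and Helz-null values did not overlap.

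**Figure D4:**
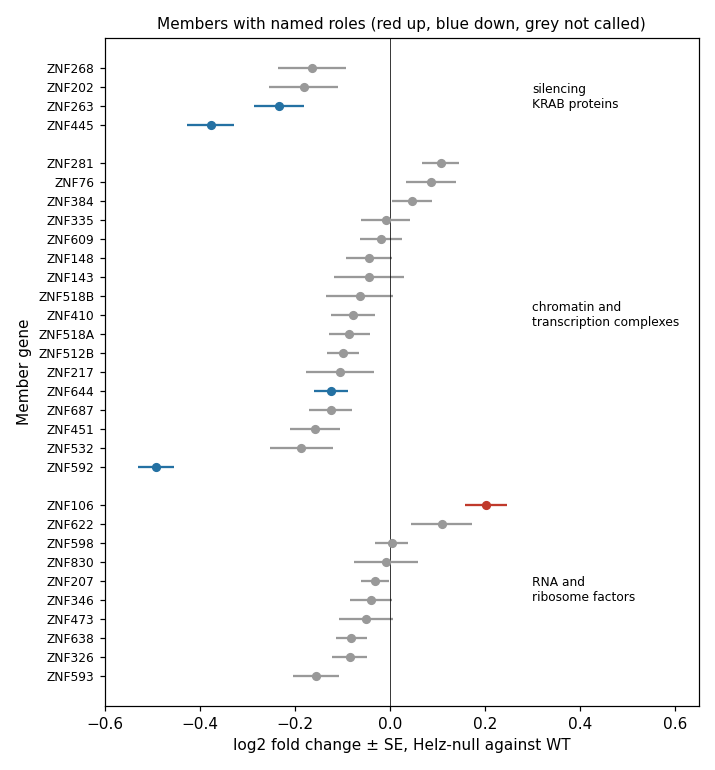
The log2FC, Helz-null against WT, with its standard error (x axis) of each member (y axis) of 3 role lists. Of the 31 genes, 1 is coloured red for up-regulated (ZNF106) and 4 blue for down-regulated (ZNF592, ZNF644, ZNF445 and ZNF263), and grey genes were not called.

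Of 20 genes tested for the co-repressor machinery through which KRAB proteins act, 4 were up-regulated and 4 down-regulated, beside 13.9% and 15.5% of all tested genes, and the median log2FC was 0.017. TRIM28, the KRAB co-repressor, had 706.5 and 669.7 CPM in WT cells and 743.4 and 720.9 CPM in Helz-null cells, a log2FC of 0.09 that missed the threshold (adjusted p = 0.010, edgeR's quasi-likelihood test). SETDB1 had a log2FC of 0.13 and missed it as well (adjusted p = 0.027, edgeR's quasi-likelihood test). CHD4, a nucleosome remodeller, rose 1.23-fold, DNMT1, the maintenance DNA methyltransferase, 1.22-fold, MPHOSPH8, of the HUSH silencing complex, 1.18-fold and CHD3 1.09-fold. HDAC2, a histone deacetylase, fell to 82.0% of the WT level, the chromatin remodeller ATRX to 82.7%, UHRF1, which guides DNMT1, to 84.03% and FAM208A, another HUSH subunit, to 88.9%.

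Promoters are shown for ZNF385C and ZNF678, the members with the largest increase and decrease, and for ZNF197 and ZNF620, the called members with the largest changes whose promoter held the motif CCGGAAG. Each is the stretch from 250 bases before to 50 bases after the start in RefSeq (GRCh38.p14), 300 bases read 5′ to 3′ on the gene's strand, at chr17:42098424-42098723 (minus), chr1:227563306-227563605 (plus), chr3:44624786-44625085 (plus) and chr3:40505789-40506088 (plus). ZNF385C has 3 listed starts, and the first is shown. Capitals mark matches on either strand to the motif GGGCGG, which is known as the GC box. They also mark the CCAAT box with its letters on either strand, the motif TATAAA of some core promoters, and the motif CCGGAAG, which ETS-family factors are known to bind. No motif searched contains another.
ZNF385C: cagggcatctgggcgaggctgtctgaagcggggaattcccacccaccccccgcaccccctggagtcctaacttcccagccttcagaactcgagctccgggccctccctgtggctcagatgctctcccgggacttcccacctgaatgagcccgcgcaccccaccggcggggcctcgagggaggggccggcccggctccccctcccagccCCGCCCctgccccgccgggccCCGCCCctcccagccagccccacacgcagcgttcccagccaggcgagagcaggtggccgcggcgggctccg
ZNF678: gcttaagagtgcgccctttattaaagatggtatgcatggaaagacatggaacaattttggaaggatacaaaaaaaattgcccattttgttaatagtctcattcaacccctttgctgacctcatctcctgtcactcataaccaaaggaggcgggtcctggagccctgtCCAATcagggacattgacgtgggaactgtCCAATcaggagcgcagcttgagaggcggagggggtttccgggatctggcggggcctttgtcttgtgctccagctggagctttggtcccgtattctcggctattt
ZNF197: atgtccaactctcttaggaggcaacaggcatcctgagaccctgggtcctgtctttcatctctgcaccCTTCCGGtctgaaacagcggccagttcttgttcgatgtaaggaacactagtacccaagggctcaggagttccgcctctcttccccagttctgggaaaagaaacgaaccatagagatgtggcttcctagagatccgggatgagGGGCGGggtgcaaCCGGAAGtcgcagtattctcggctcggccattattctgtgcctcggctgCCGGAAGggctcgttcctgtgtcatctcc
ZNF620: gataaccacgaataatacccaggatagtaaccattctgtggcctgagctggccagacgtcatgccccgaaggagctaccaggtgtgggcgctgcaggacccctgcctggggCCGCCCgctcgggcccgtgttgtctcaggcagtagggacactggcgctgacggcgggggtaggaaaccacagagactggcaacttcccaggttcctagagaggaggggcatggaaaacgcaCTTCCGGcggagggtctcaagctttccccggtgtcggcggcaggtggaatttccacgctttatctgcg

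The promoter shown for ZNF385C held 2 GC boxes and is 74.7% GC, that of ZNF678 held 2 CCAAT boxes at 49.7% GC, that of ZNF197 held 3 CCGGAAG motifs and 1 GC box, and that of ZNF620 held 1 CCGGAAG motif and 1 GC box. Promoters of 142 members were matched. CCGGAAG, on either strand, was found in 39.4% of them and in 48.9% of those with a KRAB pattern. It was found in 20.7% of the 8526 promoters of tested genes and in 10.7% of all 27305 promoters of this length. By call, it was found in 4 of 11 promoters of up-regulated members (36.4%) and in 6 of 26 of down-regulated members (23.1%). For 3 other motifs the shares lay closer together: GGGCGG was found in 66.2% of members against 72.9% of tested genes, CCAAT in 35.2% against 37.8% and TATAAA in 3.52% against 4.76%. The palindrome TGACGTCA was found in 6.34% of members and 3.57% of tested genes, and ACTACAA in 8.45% and 4.18%.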

How the data were processed

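The authors sequenced RNA of HEK293T cells, WT or Helz-null, in 2 libraries each, removed ribosomal reads, mapped the rest to hg19 and counted reads per gene. The labels' processing notes name Bowtie2, TopHat2 and edgeR without versions, and the gene annotation and the use of strand are not given in the sources used here. The count table deposited by the authors holds raw counts, without normalization, and gene widths from which FPKM was computed here. A deposited comparison of 10978 genes holds the authors' own test (FDR, p-values, log2 CPM and log2 fold changes), of which only the list of genes was used. The number of count columns without a known library was 0.

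Counts were scaled by TMM and tested with edgeR 4.0.16 (estimateDisp, glmQLFit, glmQLFTest, genotype as the only term) in R 4.3.3 with limma 3.58.1 over these 10978 genes, which hold 97.8% of the counts, and Benjamini-Hochberg adjusted p-values (FDR) under 0.005 were called. The biological coefficient of variation was 2.6%. A log2FC is Helz-null against WT, and SE is its standard error, derived from the F statistic. Total counts were between 41745401 and 70464140, and 3 counts, taken as a floor, equal 0.042 to 0.072 CPM. Floors cover counting error only. The members and lists were chosen with earlier results of these data known, and no list was tested as a set. Genes named are HELZ, ZNF385C with its paralogs and the 3 tested genes on each side, the 10 up- and 10 down-regulated members with the largest absolute log2FC whose groups do not overlap, the 5 most abundant members, the role lists, TRIM28, SETDB1 and called co-repressors, 3 genes on each side of the minima and members in raised or lowered stretches. ZNF12, ZNF561, ZNF562, ZNF714 and ZNF260 fall outside this rule and were named after their values were seen, and ZNF22 and ZNF316 were set beside their neighbours in the same way.

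Positions and coding sequences came from GENCODE on GRCh37, and domains were searched in its translated canonical coding sequences, in place of the RefSeq proteins planned. Promoters came from RefSeq. On simulated counts, the test was checked with known changes. Same-numbered libraries did not deviate together (correlation 0.0343). The alternatives comprised DESeq2 1.42.0, other scalings, filters and thresholds, other count minima, a replicate block, single libraries left out, subtraction of neighbouring genes and, chosen after seeing the data, of the GC trend. Python 3.11.15, numpy 2.4.6, pandas 2.3.3 and matplotlib 3.10.9 were used.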

Additional observations from a re-analysis of the deposited data

How the results depend on the processing

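The 14 up- and 31 down-regulated members became 23 and 60 at an FDR under 0.05 (21.6% and 22.8% of all tested genes). They became 2 and 7 when a fold change of at least 1.2 was tested (1.98% and 2.90% of all tested genes). With the count minima doubled and ZNF385C again added, 9 of 78 genes were up-regulated (11.5%) and 17 down-regulated (21.8%). Beside them stand 13.9% and 15.5% of all tested genes. ZNF385C, added for its change, is among the up-regulated genes in each of these counts. With single libraries left out, up-regulated members ranged from 8 (without Helz-null replicate 1) to 13, down-regulated members from 19 (without Helz-null replicate 2) to 33, and the median log2FC from -0.07503 to -0.05657, the latter without Helz-null replicate 2. With scaling by library size only, the median of the members was -0.04078 and that of all tested genes moved alike, from -0.0009 to 0.032. The median of the members was -0.0451 with the minima, exchanged between replicates, set on the Helz-null libraries. It was -0.05396 with the GC trend subtracted, the last chosen after seeing the data. The cause of the last 2 shifts was not tested. DESeq2 called 11 and 23 members (10.04% and 11.7% of all tested genes). With the replicate number as a block, 15 were up- and 32 down-regulated (15.3% and 16.8% of all tested genes) and the median was -0.07323, and the numbers did not pair the libraries. Subtracting the median of neighbouring genes turned ZNF236 to -0.2161 and ZNF777 to -0.06944. Of the called members, 5 of 14 up-regulated and 14 of 31 down-regulated genes kept their call in each of 12 alternatives. The 5 include ZNF385C, whose call was fixed by the choice. For 57 members named by rank, role, family or nearness to the minima, 653 of 684 values under tested alternatives kept their side of the threshold. Among the values not called, 16 changed sign. Of the 684 values, 27 (of 11 genes) were no longer called and 4 became called. Members named only for their position or after their values were seen, such as ZNF746, ZNF12 and ZNF589, are not among the 57. HELZ stayed between -1.478 and -1.408 in the alternatives run. With 2 libraries in each group, samples that deviate could not be searched for, and each group is 1 cell line, so that genotype and line cannot be told apart.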

Other observations

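The numbered ZNF genes that were tested but lay under the count minima showed a median log2FC of -0.116. Among the 110, 5 were up-regulated (4.55%) and 16 down-regulated (14.5%), beside 13.9% and 15.5% of all tested genes, and 77 had a log2FC below 0. The genes named here were chosen after their values were seen. ZNF35 on chromosome 3 had the largest decrease, from 14.7 and 15.0 CPM to 6.04 and 7.002 CPM (log2FC -1.17, adjusted p = 3.18e-13, edgeR's quasi-likelihood test), and ZNF100 the largest increase, from 14.9 and 14.6 CPM to 22.5 and 20.8 CPM (log2FC 0.54, adjusted p = 6.73e-08, edgeR's quasi-likelihood test).

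Other C2H2 families are given by their counts, where 13.9% of all tested genes were up-regulated and 15.5% down-regulated. Of 32 ZBTB genes, whose products join fingers to a BTB domain, 1 was up-regulated and 4 were down-regulated, with a median log2FC of -0.049. ZBTB18, a repressor with a role in brain development, fell from 91.2 and 91.1 CPM to 56.9 and 54.3 CPM (log2FC -0.72), and ZBTB10 rose from 60.2 and 63.1 CPM to 75.05 and 76.4 CPM (log2FC 0.30). Of 10 Krüppel-like factors, 4 were up-regulated (KLF3, KLF5, KLF9 and KLF12) and 0 down-regulated, with a median of 0.13. A list of 10 genes is too short to be read against those shares. KLF5 had 23.6 and 23.003 CPM in WT cells and 31.3 and 29.8 CPM in Helz-null cells (log2FC 0.39). ZSCAN genes (0 up-regulated and 1 down-regulated of 12), ZKSCAN genes (0 and 1 of 6), ZFP genes (1 and 2 of 13) and SP genes (1 and 1 of 5) are too few for such shares to be read.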
